A study of Sus scrofa with 12 samples.

Results

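The circadian clock genes of porcine aortic valve interstitial cells (paVICs) were examined after exposure to LPC and dantrolene. The genes were CLOCK, NPAS2, PER1, PER2, PER3, CRY1, CRY2, NR1D1, NR1D2 and DBP, and their rows were found by gene symbol. Of these 10 genes, 8 had a row under their symbol in a count table of 31908 genes, and all 8 were among the 13216 genes with enough counts to be tested. NR1D2 carried no symbol in that table and was found through its Ensembl identifier in a table of gene names, so it is described beside the 8 but not counted with them. PER3 had no row.

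RNA was sequenced from wild-type primary paVICs in 4 groups of 3 libraries, harvested after 24 h in medium with 1% bovine growth serum. Every group, the controls included, received 0.6% DMSO and 0.1% ethanol, the solvents of the drugs. The groups were vehicle alone, 10 μM LPC (lysophosphatidylcholine, a lipid of oxidised lipoproteins, used to model valve calcification), 60 μM dantrolene (an inhibitor of calcium release through the ryanodine receptor), and LPC + dantrolene at the same doses. The cells were frozen, thawed and passaged, and each isolation pooled valves of several pigs. Each of 3 experiments used a separate isolation, with 1 replicate per group. Replicates 1, 2 and 3 of every group were taken by their numbers as isolations 1, 2 and 3.

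The circadian clock is a transcriptional loop found in nearly all cells. CLOCK, or its close relative NPAS2, pairs with BMAL1 (gene ARNTL) or BMAL2 (gene ARNTL2) and switches on the PER and CRY genes, whose proteins then return to the nucleus and inhibit the pair. A second loop runs through the nuclear receptors REV-ERBα (NR1D1) and REV-ERBβ (NR1D2), which repress ARNTL, and RORα, which activates it, and DBP is an output transcription factor driven directly by the pair. CLOCK and NPAS2 belong to the bHLH-PAS family, which also holds the aryl hydrocarbon receptor and the hypoxia factor HIF-1α. In cultured fibroblasts a change of serum can set the clock of all cells together, so the level of such a gene at 1 time depends on the hour of harvest. Because all libraries were taken at 24 h, phase, period and amplitude cannot be read from them.

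Total counts lay between 16489684 and 24105935 per library. The deposited counts had been adjusted by the authors for the isolation, so they are not reads as sequenced and p-values from them can be too small. Levels are given as CPM (a gene's counts relative to a library total corrected with TMM factors), and a level of 3 counts would equal 0.114 to 0.186 CPM depending on the library, which accounts for counting error alone. CPM is not corrected for gene length, so levels are compared between groups and not between genes. Replicate 2 of LPC + dantrolene stood apart, with a mean correlation of 0.909 with its own group against 0.937 to 0.974 for the other 11 libraries. Several results that rest on it, those of CLOCK, NR1D2 and ARNTL2 among them, are given with and without it, and others only with it. The authors' adjustment for the isolation came before any library was left out here. Values without replicate 2 may therefore still carry its influence on the other libraries of isolation 2, which was not tested. The summed level of 10 interstitial cell and fibroblast markers was 44500 to 81800 CPM in all libraries. The endothelial list of 8 markers summed to 142 to 178 CPM in vehicle and 106 to 144 CPM in the treated libraries, and the blood list of 8 to 12.6 to 28.8 CPM with PTPRC, CD163, LYZ and CD3E at 0. In the muscle list 6 of 8 markers had a row and summed to 1.41 to 3.62 CPM, and the smooth muscle list of 5 summed to 810 to 3580 CPM. Most markers gave no call, but LUM, of the interstitial list, rose against vehicle by 1.35, 1.59 and 1.35 with LPC, dantrolene and both (SE 0.34 each, edgeR adjusted p = 0.00351, 0.000608 and 0.0042), and its interaction was -1.58 (SE 0.48, edgeR adjusted p = 0.0367). CDH5, of the endothelial list, fell by 1.2 on the log2 scale with dantrolene (SE 0.34, edgeR adjusted p = 0.0111), and with both agents it differed by -1.0 (SE 0.34, edgeR adjusted p = 0.0536). The part of these lists in the results was not tested.

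CLOCK was the only 1 of the 8 tested members whose transcript rose by the test, and it did so in each treatment group. Its level was 24.3, 17.4 and 10.8 CPM in vehicle, 56.1, 38.9 and 42.5 CPM with LPC, 28.4, 48.5 and 40.9 CPM with dantrolene, and 51.8, 10.9 and 52.8 CPM with LPC + dantrolene, in the order of isolations 1, 2 and 3. All LPC and all dantrolene libraries lay above all vehicle libraries. With both agents 2 libraries lay well above vehicle, and the third, from isolation 2, lay inside the vehicle range. CLOCK was upregulated by 1.39 on the log2 scale with LPC, 2.62-fold (SE 0.37, adjusted p = 0.00563), in the edgeR quasi-likelihood test, adjusted by Benjamini-Hochberg over all tested genes. With dantrolene the log2 fold change was 1.16 (SE 0.37, edgeR adjusted p = 0.0288), and with LPC + dantrolene it was 1.14 (SE 0.37, edgeR adjusted p = 0.0395).

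**Figure D1:**
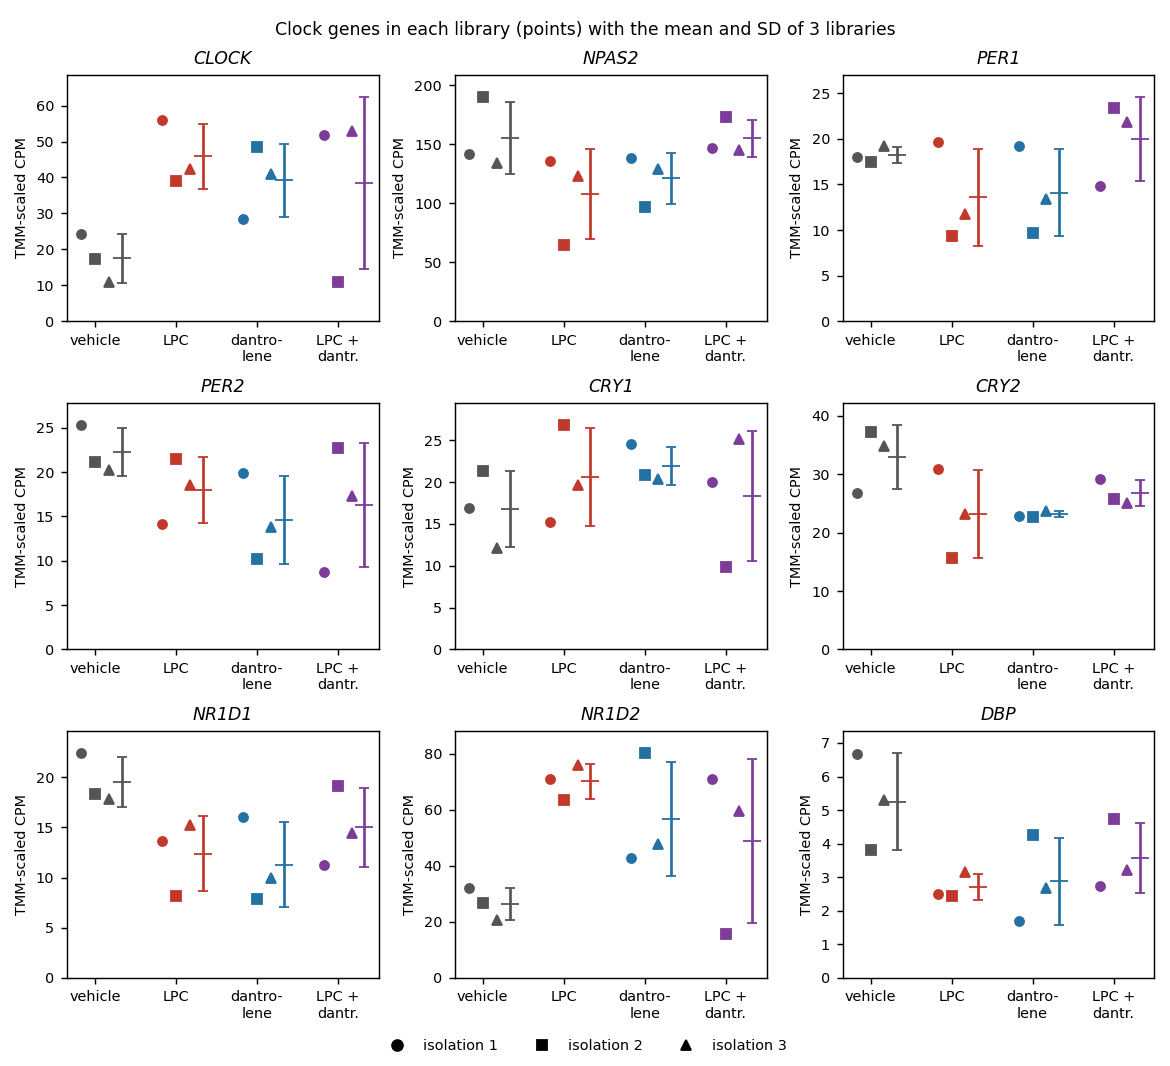
TMM-scaled CPM (linear vertical axis from 0) of the 8 tested clock genes and NR1D2 in each of 12 libraries, by treatment group on the horizontal axis, with circles, squares and triangles for isolations 1, 2 and 3 and a bar for the mean and SD of 3 libraries. CLOCK and NR1D2 lie higher in all LPC and dantrolene libraries than in all vehicle libraries, and the square of LPC + dantrolene lies within or below the vehicle range.

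These calls turned on single libraries and, in part, on the method. With DESeq2, a second count test, the calls of CLOCK with dantrolene and with LPC + dantrolene were lost. The latter was also lost with scaling by total counts alone and in a fit of LPC + dantrolene and vehicle only. Without replicate 2 of LPC + dantrolene, the CLOCK difference between LPC + dantrolene and vehicle was 1.63 (edgeR adjusted p = 2.6e-05), whereas without replicate 1 or 3 of that group it was 0.87 or 0.84 (edgeR adjusted p = 0.324 or 0.389). That call was also lost without any 1 of the vehicle libraries, LPC replicate 1 or 2, or dantrolene replicate 2, where the difference was 0.92 to 1.45. With the isolation as a block in the fit, CLOCK kept its call with LPC (1.39, edgeR adjusted p = 0.0271) but not with dantrolene (1.24, edgeR adjusted p = 0.0644) or LPC + dantrolene (1.07, edgeR adjusted p = 0.176). The LPC call was lost without replicate 2 or 3 of vehicle or replicate 1 or 2 of LPC, where the difference stayed between 1.19 and 1.49 and the highest edgeR adjusted p was 0.101. Without vehicle replicate 2 or 3, LPC replicate 1 or 2, or dantrolene replicate 2 or 3, the dantrolene call was lost, and the difference was 0.96 to 1.17.

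A count of 1 called gene among 8 has to be read against the rest of the transcriptome. Genes that rose made up 8.54% of all those tested with LPC, 7.54% with dantrolene and 6.23% with LPC + dantrolene, and 5.47% of all tested genes rose in all of these. Genes that fell were rarer, at 0.144%, 1.26% and 0.9%, and no member was among them in edgeR or in DESeq2. At an unadjusted p under 0.05, 2, 2 and 1 of the 8 members differed from vehicle in those 3 comparisons, beside 15.9%, 16.2% and 14.5% of all tested genes. The median log2 fold change of the 8 was -0.46 with LPC against -0.18 over all tested genes, -0.44 against -0.11 with dantrolene, and -0.15 against -0.08 with both. These 3 comparisons share the vehicle libraries and are therefore not independent of each other. Where libraries were scaled by total counts alone, the median of all genes moved to -0.00, 0.13 and 0.12, and log2 fold changes are best read relative to that shift.

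NPAS2, the relative that can take CLOCK's place, did not pass the test in any comparison. Its level was 142, 190 and 134 CPM in vehicle, 136, 64.6 and 123 CPM with LPC, 138, 96.7 and 129 CPM with dantrolene, and 147, 173 and 145 CPM with both. The groups given LPC or dantrolene alone overlapped vehicle, and isolation 2 held the lowest library of each. The log2 fold change against vehicle was -0.53 with LPC, -0.36 with dantrolene and -0.00 with both (SE 0.32 each, edgeR adjusted p = 0.48, 0.686 and 1.0).

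The binding partners of CLOCK gave a call for ARNTL2 and none for ARNTL. ARNTL, which encodes BMAL1, stood at 12.5, 16.9 and 12.5 CPM in vehicle, 8.09, 10.2 and 9.46 CPM with LPC, 8.21, 8.53 and 11.2 CPM with dantrolene, and 13.9, 6.52 and 8.67 CPM with both. All LPC and dantrolene libraries lay below vehicle, at log2 differences of -0.59 and -0.58 (SE 0.35 each) that did not pass the test (edgeR adjusted p = 0.464 and 0.457). ARNTL2, which encodes BMAL2, stood at 9.73, 11.6 and 9.01 CPM in vehicle, 34.6, 27.5 and 26.1 CPM with LPC, 16.3, 31.7 and 21.1 CPM with dantrolene, and 25.2, 6.46 and 22.2 CPM with both. Its LPC and dantrolene libraries all lay above vehicle, by 1.54 (SE 0.36, edgeR adjusted p = 0.00141) and 1.19 (SE 0.36, edgeR adjusted p = 0.021) on the log2 scale. With both agents the ARNTL2 difference was 0.83 (SE 0.36, edgeR adjusted p = 0.206), and 1.28 without replicate 2 of that group (edgeR adjusted p = 0.000878). The dantrolene call of ARNTL2 was lost with the isolation block (1.2, edgeR adjusted p = 0.0631) and without any 1 of the vehicle libraries, LPC replicate 2 or dantrolene replicate 2 (lowest difference 0.89, highest edgeR adjusted p = 0.288), whereas its LPC call was kept throughout.

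Of the nuclear receptors of the second loop, NR1D2 gave calls and NR1D1 none. NR1D1 stood at 22.4, 18.3 and 17.8 CPM in vehicle, 13.7, 8.14 and 15.2 CPM with LPC, 16, 7.85 and 9.93 CPM with dantrolene, and 11.3, 19.1 and 14.4 CPM with both. All LPC and dantrolene libraries were below vehicle, at log2 differences of -0.66 and -0.79 (SE 0.35 each), but neither passed the test (edgeR adjusted p = 0.359 and 0.185). NR1D2 stood at 32.0, 26.6 and 20.5 CPM in vehicle, 71.0, 63.5 and 76.0 CPM with LPC, 42.6, 80.1 and 47.6 CPM with dantrolene, and 71.1, 15.7 and 59.5 CPM with both. NR1D2 was upregulated 2.66-fold with LPC (log2 1.41, SE 0.36, edgeR adjusted p = 0.0032) and 2.15-fold with dantrolene (log2 1.11, SE 0.35, edgeR adjusted p = 0.0317). With both agents its difference was 0.89 (SE 0.35, edgeR adjusted p = 0.139), or 1.36 without replicate 2 (edgeR adjusted p = 0.000241). The LPC result kept its call when any single library was left out and with the isolation block (1.42, edgeR adjusted p = 0.0173). Its dantrolene call was lost with DESeq2 (1.16, adjusted p = 0.0574) and with the block (1.15, edgeR adjusted p = 0.0757), and also without any 1 of the vehicle libraries, LPC replicate 1 or 2, or dantrolene replicate 2 (lowest difference 0.78, highest edgeR adjusted p = 0.417).

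The PER genes, the repressor arm of the main loop, gave no call. PER1 was 18.0, 17.5 and 19.2 CPM in vehicle, 19.6, 9.39 and 11.8 CPM with LPC, 19.2, 9.71 and 13.4 CPM with dantrolene, and 14.8, 23.4 and 21.8 CPM with both. The vehicle libraries were close together, and in the groups given a single agent isolation 1 was as high as vehicle and isolations 2 and 3 were lower. PER2 was 25.3, 21.1 and 20.3 CPM in vehicle, 14.1, 21.5 and 18.5 CPM with LPC, 19.9, 10.2 and 13.8 CPM with dantrolene, and 8.79, 22.7 and 17.3 CPM with both. All dantrolene libraries lay below vehicle for PER2, though the highest by a small margin, and the log2 difference was -0.61 (SE 0.35, edgeR adjusted p = 0.411). Against vehicle the other PER differences were between -0.45 and 0.13, with edgeR adjusted p from 0.613 to 0.964.

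The cryptochromes, which join PER in the repressor complex, gave no call either. CRY1 was 16.9, 21.3 and 12.1 CPM in vehicle, 15.2, 26.8 and 19.7 CPM with LPC, 24.5, 20.8 and 20.4 CPM with dantrolene, and 20.0, 9.82 and 25.1 CPM with both, so every group overlapped vehicle. CRY2 was 26.7, 37.1 and 34.8 CPM in vehicle, 30.8, 15.7 and 23.2 CPM with LPC, 22.8, 22.7 and 23.7 CPM with dantrolene, and 29.2, 25.7 and 25.1 CPM with both. For CRY2 the dantrolene libraries were nearly equal and all below vehicle, at a log2 difference of -0.51 (SE 0.33, edgeR adjusted p = 0.507). The CRY1 differences were 0.29, 0.38 and 0.13 (SE 0.34 each, edgeR adjusted p = 0.703, 0.684 and 0.966) with LPC, dantrolene and both.

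DBP, the output factor, was the member with the fewest counts, at 31 to 140 counts per library. It stood at 6.68, 3.80 and 5.29 CPM in vehicle, 2.51, 2.44 and 3.14 CPM with LPC, 1.70, 4.27 and 2.67 CPM with dantrolene, and 2.74, 4.72 and 3.21 CPM with both. All LPC libraries were below vehicle and the other groups overlapped it. The log2 differences were -0.96, -0.86 and -0.57 (SE 0.46, 0.45 and 0.45), and none passed the test (edgeR adjusted p = 0.266, 0.35 and 0.734).

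**Figure D2:**
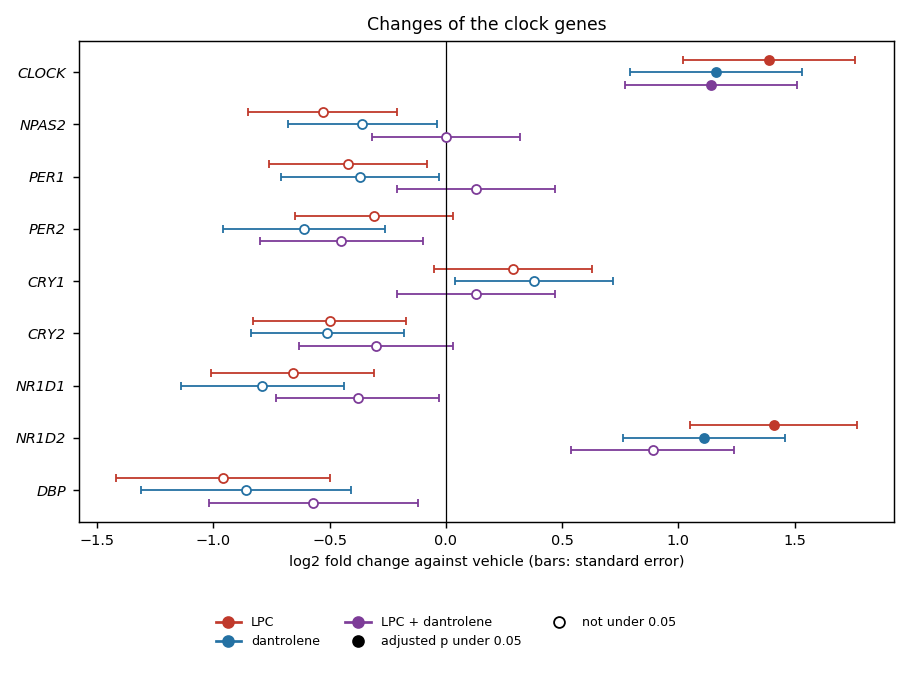
Log2 fold change against vehicle (horizontal axis, bars are the standard error derived from the test) of the 8 tested clock genes and NR1D2 with LPC (red), dantrolene (blue) and LPC + dantrolene (purple). Filled points passed an edgeR adjusted p under 0.05: CLOCK in all 3 comparisons, at 1.39, 1.16 and 1.14, and NR1D2 with LPC and with dantrolene, at 1.41 and 1.11.

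By separation of the libraries alone, 1 member lay wholly above vehicle with LPC and 2 (NR1D1 and DBP) wholly below. Among all tested genes 16.6% lay wholly above and 10.6% wholly below. With dantrolene 1 member lay wholly above and 3 (PER2, CRY2 and NR1D1) wholly below, beside 16.1% and 11.0% of all tested genes. With LPC + dantrolene, replicate 2 included, no member was separated from vehicle in either direction, beside 4.71% and 5.74%. These were bulk samples, in which fewer cells expressing a gene and less RNA per cell cannot be told apart.

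Since paired relatives can substitute for each other, the balance between them was computed within each library, where scaling between libraries cancels. These ratios were added after the values above were seen, so they restate those values and add no separate support. With 3 libraries against 3 an exact two-sided permutation test cannot go below 0.1. That value became 0.15 after Benjamini-Hochberg adjustment over the 15 tests (5 ratios in 3 comparisons). The log2 ratio of CLOCK to NPAS2 counts was -3.21 ± 0.58 in vehicle (SD, n = 3), -1.18 ± 0.41 with LPC, -1.65 ± 0.64 with dantrolene and -2.32 ± 1.44 with both. All LPC and dantrolene libraries had a higher ratio than all vehicle libraries, by 2.03 and 1.56 on average (exact permutation p = 0.1 for each). The ratio of ARNTL2 to ARNTL was -0.46 ± 0.09 in vehicle, 1.66 ± 0.38 with LPC, 1.27 ± 0.54 with dantrolene and 0.73 ± 0.69 with both. It was higher in all 9 treated libraries than in any vehicle library (exact permutation p = 0.1 in each comparison), replicate 2 of LPC + dantrolene at -0.01 included. The ratio of NR1D2 to NR1D1 was 0.42 ± 0.19 in vehicle, 2.55 ± 0.36 with LPC, 2.34 ± 0.97 with dantrolene and 1.47 ± 1.55 with both, the last holding replicate 2 at -0.28. It was separated from vehicle with LPC and with dantrolene (exact permutation p = 0.1 each) and not with both (exact permutation p = 0.4). Without that replicate the group's mean exceeded vehicle by 1.73 for CLOCK to NPAS2, 1.56 for ARNTL2 to ARNTL and 1.93 for NR1D2 to NR1D1.

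**Figure D3:**
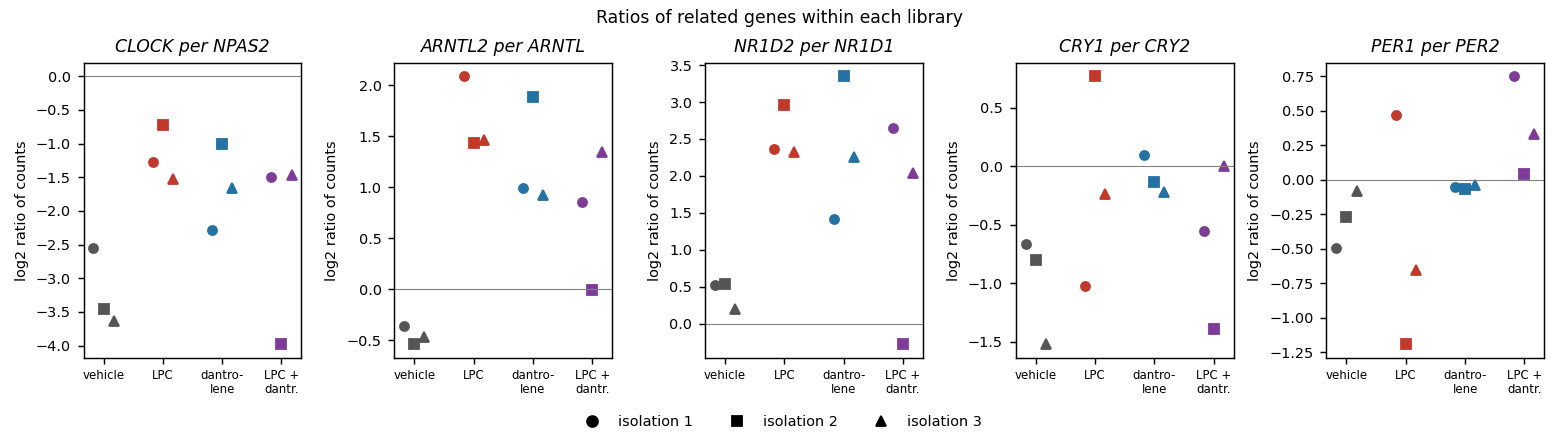
Log2 ratio of the counts of related clock genes within each library (vertical axes, own range in each panel, grey line at equal counts), by treatment group, with circles, squares and triangles for isolations 1, 2 and 3. The ratio of ARNTL2 to ARNTL is below 0 in the 3 vehicle libraries and between -0.01 and 2.09 in the 9 treated ones.

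The repressor pairs were less clearly divided. CRY1 to CRY2 was -0.99 ± 0.46 in vehicle, -0.16 ± 0.9 with LPC, -0.08 ± 0.17 with dantrolene and -0.65 ± 0.7 with both, and was separated from vehicle with dantrolene alone (exact permutation p = 0.1). PER1 to PER2 was -0.28 ± 0.2 in vehicle, -0.46 ± 0.85 with LPC, -0.05 ± 0.01 with dantrolene and 0.37 ± 0.36 with both. It overlapped vehicle with LPC (exact permutation p = 0.8) and lay just above it with dantrolene and with both (exact permutation p = 0.1 each).

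No member passed the test when dantrolene was added to LPC. In LPC + dantrolene against LPC, 0 of 8 passed in edgeR or DESeq2, beside 0.507% of all genes called in edgeR, and 0 had an unadjusted p under 0.05, beside 6.61%. Against dantrolene alone it was again 0 of 8 by each of these measures, beside 0.0227% of all genes called in edgeR and 1.28% at an unadjusted p under 0.05. For CLOCK these differences were -0.25 and -0.03 on the log2 scale (SE 0.36 each, edgeR adjusted p = 0.964 and 1.0), and 0.18 and 0.41 without replicate 2 of LPC + dantrolene. By separation alone, NPAS2 lay higher in all 3 LPC + dantrolene libraries than in any LPC library, as 4.86% of all tested genes did, at a log2 difference of 0.52 that did not pass the test (SE 0.32, edgeR adjusted p = 0.864). NPAS2 and CRY2 lay wholly above dantrolene alone, beside 2.54% of all tested genes, at 0.35 and 0.21 (SE 0.32 and 0.33, edgeR adjusted p = 1.0 each).

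The interaction, the LPC effect in the presence of dantrolene minus that in its absence, asks whether the agents add up. For CLOCK it was -1.41 (SE 0.51, edgeR adjusted p = 0.105), and -1.04 without replicate 2 of LPC + dantrolene (edgeR adjusted p = 0.186). None of the 8 members passed in edgeR or DESeq2, beside 4.65% of all genes called in edgeR, 4.49% with a negative sign. At an unadjusted p under 0.05 there were 2 of 8, beside 14.5% of all genes. NR1D2 did pass, at -1.63 (SE 0.5, edgeR adjusted p = 0.038), but not without replicate 2 (-1.28, edgeR adjusted p = 0.0528). Its call was also lost with DESeq2 (adjusted p = 0.083), with total counts alone (edgeR adjusted p = 0.121), with the isolation block (edgeR adjusted p = 0.0945) and without any 1 of the vehicle or LPC libraries or dantrolene replicate 2, where the highest edgeR adjusted p was 0.299. Over all genes, the 593 genes with a negative interaction became 4 without LPC replicate 2 and 31 without dantrolene replicate 2, and between 217 and 889 when any other single library was left out (511 without replicate 2 of LPC + dantrolene).

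Of 27 further clock genes, 26 had a row and 24 were tested. With LPC 5 rose (ARNTL2, CREB1, NAMPT, PRKAA1 and SIRT1), with dantrolene 4 of these without NAMPT, and with LPC + dantrolene 1, CREB1, and no gene fell in any. These counts stand beside the 8.54%, 7.54% and 6.23% of all tested genes that rose. PRKAA1, a catalytic subunit of the AMP kinase that phosphorylates cryptochromes, stood at 12.2, 13.8 and 10.2 CPM in vehicle, 38.9, 35.5 and 28.9 CPM with LPC, 23.6, 39.1 and 33.4 CPM with dantrolene, and 33.2, 10.6 and 30.8 CPM with both. All its LPC and dantrolene libraries lay above vehicle, and replicate 2 of LPC + dantrolene lay within the vehicle range. It rose by 1.51 with LPC (SE 0.35, edgeR adjusted p = 0.00121) and 1.41 with dantrolene (SE 0.35, edgeR adjusted p = 0.00328). With both agents its difference of 1.05 stopped short of the threshold (SE 0.35, edgeR adjusted p = 0.0503). It passed in 6 of 19 alternatives, which were DESeq2, RLE and total-count scaling, at least 10 counts in every library, and leaving out dantrolene replicate 1 or LPC + dantrolene replicate 2 (lowest edgeR adjusted p = 8.04e-05), and the difference was 0.78 to 1.46 over all 19. The LPC call of PRKAA1 held in every alternative, and its dantrolene call was lost without dantrolene replicate 2 (edgeR adjusted p = 0.0579).

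NAMPT and SIRT1 link the clock to NAD, NAMPT by a step in its synthesis and SIRT1 as a deacetylase that consumes it. NAMPT, itself a target of the clock, rose by 1.1 with LPC (SE 0.36, edgeR adjusted p = 0.0368) and differed by 0.94 with dantrolene (SE 0.36, edgeR adjusted p = 0.0957). SIRT1 was 5.91, 5.96 and 5.75 CPM in vehicle and rose by 1.22 with LPC and 1.27 with dantrolene (SE 0.36 each, edgeR adjusted p = 0.0172 and 0.0135). CREB1, the factor through which calcium and cyclic AMP act on PER1, rose by 1.66, 1.39 and 1.53 with LPC, dantrolene and both (SE 0.37 each, edgeR adjusted p = 0.000783, 0.00678 and 0.0028). In each of these 3 genes the lowest of the LPC + dantrolene libraries was replicate 2. The NAMPT call was lost with DESeq2, with total counts alone and without any 1 of the vehicle libraries or LPC replicate 1 or 2, and both SIRT1 calls without any 1 of the vehicle libraries, the LPC call also without LPC replicate 1 and the dantrolene call without dantrolene replicate 2. With the block the LPC calls of NAMPT and SIRT1 were lost, and the highest edgeR adjusted p over these alternatives was 0.274 for NAMPT and 0.187 for SIRT1. CREB1 kept its LPC call throughout, and lost the dantrolene call without vehicle replicate 2 or dantrolene replicate 2 (highest edgeR adjusted p = 0.227) and the call with both without replicate 3 of that group (edgeR adjusted p = 0.0522).

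The other transcription factors of the loops gave no call in the model of all libraries. RORA, the activating counterpart of REV-ERB, was at 1.45 to 4.29 CPM in vehicle and 5.43 to 6.95 CPM with LPC, a log2 difference of 1.25 that fell short of the threshold (SE 0.44, edgeR adjusted p = 0.0622). The RORA difference with LPC passed in 5 of 19 alternatives, namely with at least 10 counts in every library, in a fit of these 2 groups, and without vehicle replicate 1, dantrolene replicate 1 or LPC + dantrolene replicate 2 (lowest edgeR adjusted p = 0.00982). With dantrolene RORA differed by 1.04 (SE 0.44, edgeR adjusted p = 0.159) and passed without vehicle replicate 1 or LPC + dantrolene replicate 2 (lowest edgeR adjusted p = 0.0338). TEF and HLF, which share the DBP binding site, differed by -0.49 and 0.83 with LPC, and NFIL3, their competitor, by -0.41. CIART and the repressors BHLHE40 and BHLHE41 differed by -0.37, -0.62 and 0.02 with LPC, and with dantrolene by -0.22, -0.45 and 0.24. The median of the 24 was 0.06 with LPC against -0.18 over all genes, 0.13 against -0.11 with dantrolene, and 0.08 against -0.08 with both. Without replicate 2 of LPC + dantrolene, PRKAA1, NAMPT, SIRT1 and RORA also passed in that group against vehicle (edgeR adjusted p = 8.04e-05, 9.53e-05, 0.000708 and 0.0493). The share of all tested genes that rose in this comparison was then 12.6%, against 6.23% with all libraries.

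**Figure D4:**
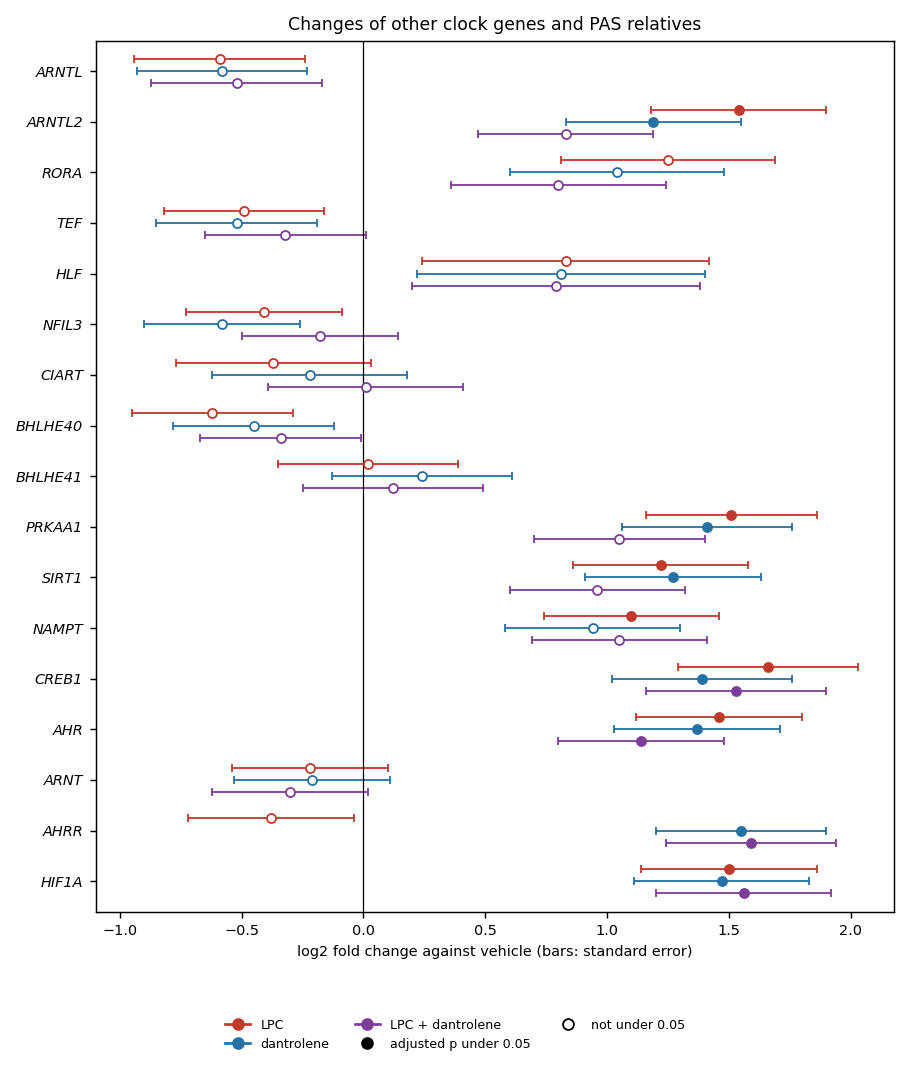
Log2 fold change against vehicle (horizontal axis, bars are the standard error derived from the test) of other clock genes and PAS relatives with LPC (red), dantrolene (blue) and LPC + dantrolene (purple), filled where the edgeR adjusted p was under 0.05. ARNTL2, PRKAA1, SIRT1, CREB1, AHR and HIF1A lie to the right of 0 in every comparison, ARNTL to the left without passing, and AHRR is filled in both groups given dantrolene but not with LPC.

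Among 16 relatives of CLOCK in the PAS family and its coactivators, 16 had a row and 11 were tested. AHR, the aryl hydrocarbon receptor, rose by 1.46, 1.37 and 1.14 with LPC, dantrolene and both (SE 0.34 each, edgeR adjusted p = 0.00135, 0.00343 and 0.0224). HIF1A rose by 1.5, 1.47 and 1.56 (SE 0.36 each, edgeR adjusted p = 0.0017, 0.00269 and 0.00143). Replicate 2 of LPC + dantrolene was the lowest of its group for both genes, at 25.8 CPM for AHR and 160 CPM for HIF1A. AHRR, the repressor that the receptor induces, rose by 1.55 with dantrolene and 1.59 with both (SE 0.35 each, edgeR adjusted p = 0.000901 and 0.000721) and not with LPC (-0.38, SE 0.34, edgeR adjusted p = 0.644). ARNT, the partner of AHR and HIF-1α, differed by -0.22, -0.21 and -0.30 without passing. Of 6 tested targets of the receptor, none was called with LPC and 5 with dantrolene and with both (AHRR, CYP1A1, CYP1B1, NQO1 and TIPARP). The calls of relatives and targets stand beside the 8.54%, 7.54% and 6.23% of all tested genes that rose with LPC, dantrolene and both. CYP1B1, for example, was at 4.88 to 60.1 CPM in the groups without dantrolene and 385 to 2490 CPM in those with it. The LPC calls of AHR and HIF1A held in every alternative, and their dantrolene calls were lost without dantrolene replicate 2 (edgeR adjusted p = 0.15 and 0.109). With both agents the HIF1A call was lost without replicate 3 of that group (edgeR adjusted p = 0.115). The AHR call with both was lost in a fit of these 2 groups, with the block and without any 1 of the vehicle libraries. It was also lost without LPC replicate 2, or replicate 1 or 3 of its own group (highest edgeR adjusted p over these alternatives = 0.214).

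Over the 12 libraries the log2 CPM of CLOCK ran close to those of CLIP1 (Pearson r = 0.992), YTHDF3 (0.991), GNA13 and SNX14 (0.99 each). Such likeness was common, as 1162 of 13215 other tested genes (8.79%) had an r of at least 0.9 with CLOCK. Among clock genes the highest values were 0.973 for NAMPT and 0.963 for NR1D2, followed by PRKAA1 (0.943) and ARNTL2 (0.935), while NPAS2 was at -0.405, NR1D1 at -0.637 and CIART at -0.769. These correlations describe libraries that share their treatments, isolation adjustment and scaling, among them 1 library that stood apart.

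In the RefSeq annotation of the pig assembly Sscrofa11.1, CLOCK spans chromosome 8, 54793323 to 54910192, and overlaps TMEM165. NPAS2 lies on chromosome 3, 53298805 to 53490375, and NR1D2 on chromosome 13, 10756954 to 10791219, with no overlapping gene. NR1D1 lies on chromosome 12, 22263549 to 22274131, and overlaps THRA, and CRY1 on chromosome 5, 13275265 to 13429566, overlaps TMEM263 and MTERF2. Whether counting used strand is not given in the sources used here, so reads of overlapping exons may not be told apart. TMEM165 differed from vehicle by -0.18, -0.27 and -0.33 with LPC, dantrolene and both, without passing the test (SE 0.32 each, edgeR adjusted p = 0.797, 0.758 and 0.823). Whether its reads entered the counts of CLOCK was not tested. TMEM263, in contrast, rose by 1.65 with LPC and 1.1 with dantrolene (SE 0.34 each, edgeR adjusted p = 0.000246 and 0.0228) where CRY1 did not pass. Its dantrolene call was lost with the isolation block and without any 1 of the vehicle libraries, LPC replicate 2, or dantrolene replicate 2 or 3 (highest edgeR adjusted p = 0.235). THRA lay below vehicle in all LPC and dantrolene libraries, as NR1D1 did, at -0.45 and -0.34 (SE 0.32 each, edgeR adjusted p = 0.568 and 0.698).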

How the data were processed

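Poly(A) RNA of paVICs was sequenced in 12 libraries. The deposited table holds whole-number counts per gene that the authors adjusted for the isolation with ComBat, not scaled for depth. The submitters' processing notes name HISAT2 2.0.5, R 4.1.1, DESeq2 1.32.0 and Sscrofa11.1, whereas the methods name STAR, and the annotation release and counting tool are not given in the sources used here. Deposited tables of the authors' own comparisons (fold changes, standard errors, p-values) were not used.

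Counts were fitted in R 4.3.3 with edgeR 4.0.16 (filterByExpr by group, TMM, glmQLFit, glmQLFTest) in 1 model of the 12 libraries whose sole factor was the group. The call threshold was 0.05 for p adjusted by Benjamini-Hochberg over 13216 genes, and log2 CPM used a prior count of 2. Each SE was derived from the test, as the absolute log2 fold change divided by the square root of the F statistic. The fit was also run on simulated counts, and the outcome is not reported here. Those counts held neither the isolation adjustment nor a library that stood apart, so the run does not bear on either. Libraries of equal replicate number were taken to come from 1 isolation, which the methods do not state by number. After the adjustment their deviations from the group means had a median r of -0.152 over 18 pairs, from -0.536 to 0.207. Libraries of different isolation and group had a median r of 0.108 over 36 pairs. The adjustment removes what libraries of an isolation share, so these values cannot show whether the isolations were paired. Alternatives were DESeq2 1.42.0, RLE or total-count scaling, 2 other filters, fits of 2 groups, the isolation block, and leaving out each library.

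Members, lists and tests were chosen with earlier results of these data known. All members with a row are named. Other clock genes are named if they were listed transcription factors of the loops or called in a comparison, PAS relatives likewise, and for CLOCK genes among the 5 with the highest correlation. Some genes that these rules name are not reported here. The genes that overlap a member were chosen after their positions were seen.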

Additional observations from a re-analysis of the deposited data

Results flagged for a closer look

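For NR1D2, ARNTL2, PRKAA1 and AHR the effect of LPC differed with and without dantrolene by the interaction test of edgeR (adjusted p = 0.038, 0.0127, 0.0111 and 0.0209). The differences were -1.63, -1.90, -1.88 and -1.70 on the log2 scale, each meaning a lower log2 effect of LPC in the presence of dantrolene. Without replicate 2 of LPC + dantrolene they were -1.28, -1.57, -1.58 and -1.46, and all but that of NR1D2 still passed. Without dantrolene replicate 2 they were -1.30, -1.60, -1.71 and -1.31, and none passed (edgeR adjusted p from 0.104 to 0.299). All 4 calls were also lost with total counts alone and without LPC replicate 1 or 2, and those of NR1D2, ARNTL2 and AHR with the isolation block and without vehicle replicate 1 or 2. The NR1D2 call was further lost with DESeq2 and without vehicle replicate 3 or LPC replicate 3. Of 18 alternatives, 11 ended the call of NR1D2, 7 that of ARNTL2, 4 that of PRKAA1 and 7 that of AHR. TMEM263, the gene that overlaps CRY1, also differed (-1.86, edgeR adjusted p = 0.00891), and its call was lost without LPC replicate 2 or dantrolene replicate 2. These calls stand beside the 4.49% of all tested genes called with a negative interaction. LUM, of the interstitial marker list, was among those genes.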

How the results depend on the processing

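The number of the 8 members called changed where CLOCK gained or lost its call, and in no alternative was another member called in any comparison. With LPC the count was 1, and 0 to 1 with a library left out. With dantrolene it was 1, fell to 0 with DESeq2 and with the isolation as a replicate block, and was 0 to 1 with a library left out. With LPC + dantrolene it was 1, fell to 0 with DESeq2, with total counts alone, with a fit of these 2 groups and with the replicate block, and was 0 to 1 with a library left out. In the interaction it was 0, rose to 1 (CLOCK, edgeR adjusted p = 0.0482) with genes of at least 10 counts in every library, and was 0 to 1 with a library left out. In LPC + dantrolene against LPC or dantrolene it was 0 in all 19 alternatives. The cause was not tested. The CLOCK difference stayed positive in all 19 alternatives, at 1.19 to 1.70 with LPC, 0.96 to 1.48 with dantrolene and 0.84 to 1.63 with both. Each group held 3 libraries, and DBP, at 31 counts in its lowest library, carried the largest standard error among the members.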
